A study of Homo sapiens with 9 samples.

Results

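Expression of 10 genes of telomerase and of the telomere-binding complex shelterin was examined in KHM-5M cells treated with the ETS inhibitor YK-4-279. The genes were taken by name, 10 of the 58735 genes in the deposited table, and comprised the telomerase genes *TERT*, *DKC1*, *NHP2* and *WRAP53* and the shelterin genes *TERF1*, *TERF2*, *TERF2IP*, *TINF2*, *ACD* and *POT1*. KHM-5M is a human thyroid cancer cell line, which the study describes as carrying mutations of both *BRAF* and the *TERT* promoter. Cells received the solvent DMSO or YK-4-279 at 0.3 μM or 1 μM for 24 h before RNA-seq, and each group had 3 samples. All groups were the same line in culture, so the values describe a single cell line. The study's methods describe its cell assays as independent experiments and call the sequenced samples biological replicates, but give fewer of them per condition than the 3 deposited here, and the labels do not say which samples came from separate cultures. The p-values measure the spread between these 3 samples.

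Telomerase extends chromosome ends. TERT is its catalytic subunit and copies a template held in the telomerase RNA, TERC. Dyskerin (DKC1) and NHP2, together with NOP10 and GAR1, bind the H/ACA domain of that RNA and keep it stable, as they do for small nucleolar RNAs, and WRAP53 brings the particle to Cajal bodies and to telomeres. Shelterin covers the telomeric repeats. TERF1 and TERF2 bind the double-stranded repeat, POT1 binds the single-stranded overhang, TINF2 and ACD (also known as TPP1) link these proteins, and TERF2IP (RAP1) joins through TERF2. *TERT* is the member whose transcription is most often limiting in human cells, and ETS factors, which read a GGAA core, act on its promoter in tumours where that promoter is mutated.

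Totals were 16903251 to 18238884 counts per sample. Counts scaled to these totals are given as CPM, and the upper limit for a gene with no count, 3 counts, was 0.164 to 0.177 CPM, for counting error alone. On the second principal component of all genes (12.6% of the variance), DMSO replicate 2 and 0.3 μM replicate 3 lay farthest apart. The thyroid transcription factors *PAX8* and *HHEX* were detected at a mean of at least 1 CPM in DMSO, while the other 6 of 8 thyroid follicular markers were not. Of 7 epithelial and mesenchymal markers 6 were detected, *CDH1* being the exception. Of 8 markers of other cell types, 2 were detected, *COL1A1* and *VWF*, and the summed level of that list was 400 to 568 CPM in DMSO, 323 to 510 CPM at 0.3 μM and 344 to 395 CPM at 1 μM. In that list *COL1A1*, a collagen gene that made up most of the sum, fell at 1 μM by 0.41 on the log2 scale (adjusted p = 0.0132, edgeR). *CD14*, a monocyte marker whose counts were 8 to 21 with DMSO but 30 to 37 in the 1 μM samples, rose by 1.07 (adjusted p = 0.0484, edgeR). Their part in the changes of the members was not tested. *PTPRC*, the pan-leukocyte marker, had at most 1 count in any sample.

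*TERT* (ENSG00000164362) lies on the minus strand of chromosome 5 from 1253147 to 1295069 (GRCh38), and *DKC1* (ENSG00000130826) on the plus strand of chromosome X from 154762742 to 154777689. Sequence before the RefSeq start site (GRCh38.p14) is shown for these genes, which passed the test at 1 μM, and for *POT1* and *TERF2IP*, shelterin genes that did not and whose windows hold a longer ETS-type match. GGAA cores, or TTCC where the core lies on the other strand, are in capitals, each sequence reads 5′ to 3′ towards its gene, and stretches lying in annotated exons were left out. The regions are chr5:1295069-1295318 (minus strand), chrX:154762614-154762741 (plus strand), chr7:124930017-124930075 (minus strand) and chr16:75647666-75647772 (plus strand).
TERT: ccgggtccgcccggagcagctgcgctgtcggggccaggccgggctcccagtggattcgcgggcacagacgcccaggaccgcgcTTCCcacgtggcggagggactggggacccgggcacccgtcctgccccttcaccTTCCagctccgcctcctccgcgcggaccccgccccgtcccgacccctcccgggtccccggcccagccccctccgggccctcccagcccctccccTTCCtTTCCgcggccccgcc
DKC1: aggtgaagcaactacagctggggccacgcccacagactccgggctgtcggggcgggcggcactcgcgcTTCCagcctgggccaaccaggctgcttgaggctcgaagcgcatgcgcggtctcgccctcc
POT1: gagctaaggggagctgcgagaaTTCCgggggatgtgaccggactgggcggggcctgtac
TERF2IP: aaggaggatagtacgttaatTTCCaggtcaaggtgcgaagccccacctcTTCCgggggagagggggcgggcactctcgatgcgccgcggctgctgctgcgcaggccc

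Windows from 250 bases before to 50 bases after the start were searched on both strands for GGAA, for CCGGAA and CCGGAAG, which contain it, for the E-box CACGTG and for the GC box GGGCGG. RefSeq windows matched 8 of the 10 genes, and *TERF1* and *TERF2* were not analysed here. Where a gene had several windows, the one nearest to its deposited start was used. The *TERT* window held 4 GGAA cores, all on the other strand, starting 167, 114, 20 and 15 bases before the start, with 0 matches to CCGGAA. It also held 1 E-box, starting 163 bases before the start, and 3 GC boxes. CCGGAAG was found in the windows of *TERF2IP*, starting 59 bases before the start, and *TINF2*, and the shorter CCGGAA also in that of *POT1*, 228 bases before the start. Over 35116 RefSeq windows of the same length, 95.5% held GGAA, 17.2% CCGGAA, 10.3% CCGGAAG, 7.26% CACGTG and 45.0% GGGCGG. These matches describe letters in the reference, not binding in KHM-5M. The study describes a mutated *TERT* promoter in these cells, so the reference counts for *TERT* need not hold there. The mutated sequence was not searched.

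In DMSO-treated cells the telomerase genes were at both ends of the range of levels. On the FPKM scale, which divides by gene length, *NHP2* was the highest member, with 62.9 ± 8.02 FPKM (SD, n = 3), and *DKC1* was next, with 24.3 ± 0.912 FPKM (SD, n = 3). *TERT* was the lowest, with 1.196 ± 0.138 FPKM (SD, n = 3). The shelterin genes lay between. *TERF2IP* had 18.8 ± 1.02 FPKM, *TINF2* 10.9 ± 0.724 FPKM, *ACD* 9.05 ± 0.710 FPKM and *TERF2* 5.75 ± 0.160 FPKM (SD, n = 3 each). *POT1* (5.05 ± 0.645 FPKM), *TERF1* (4.88 ± 0.549 FPKM) and *WRAP53* (4.55 ± 0.415 FPKM) followed, and the ranges of these neighbouring genes overlapped over the DMSO samples, so their order is not resolved. The other neighbours in the order did not overlap. The DMSO mean of *NHP2* was 52.6 times that of *TERT*, and that of *WRAP53*, the next lowest member, 3.81 times.

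**Figure D1:**
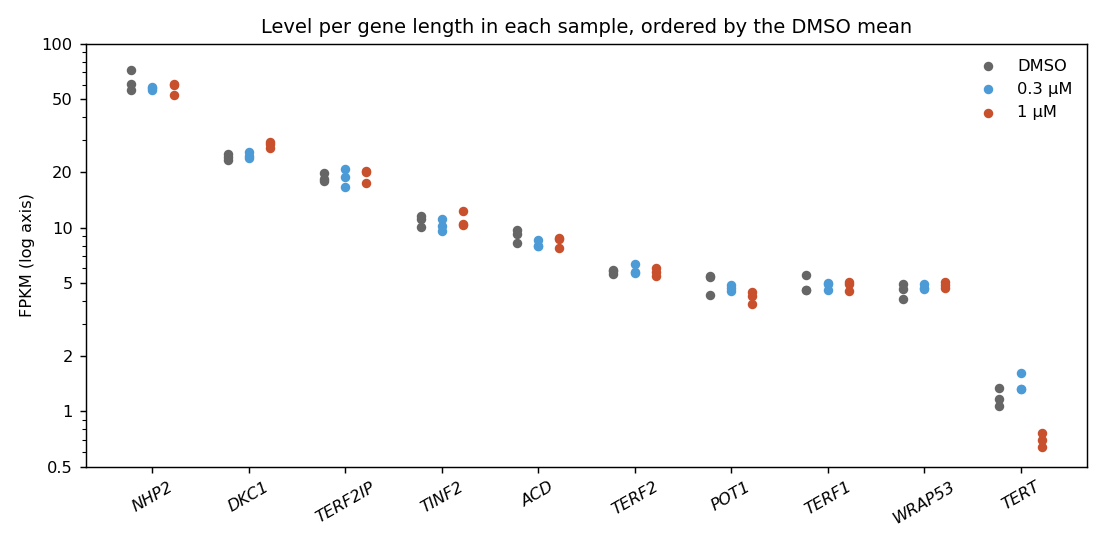
FPKM (log axis) of the 10 genes in each of the 9 samples, in order of the DMSO mean, with DMSO in grey, 0.3 μM in blue and 1 μM in orange. *TERT* is the lowest gene in each group, and its 1 μM samples (0.642 to 0.766 FPKM) lie below its DMSO samples (1.07 to 1.34 FPKM).

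To see which members changed with the higher dose, 1 μM of YK-4-279 was compared with DMSO. *TERT* fell and *DKC1* rose, and the other 8 genes did not pass the test. Across all 15617 genes tested with edgeR's quasi-likelihood test, 17.6% had an adjusted p under 0.05 (7.67% higher and 9.95% lower), so 2 of 10 members is close to the background share. A change of over 1.5-fold with an adjusted p under 0.05 was found for *TERT* alone, against 5.49% of all genes. The median log2 fold change was -0.02 over the members and -0.01 over all genes tested. The CPM ranges of treated and DMSO samples did not overlap for 2 members, *TERT* and *DKC1*, against 35.8% of all genes. In bulk RNA, fewer cells expressing a gene and less of its RNA per cell cannot be told apart.

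*TERT*, the reverse transcriptase itself, had 107, 98 and 84 counts in the DMSO samples (6.27, 5.53 and 4.97 CPM) and 59, 61 and 50 counts at 1 μM (3.23, 3.50 and 2.93 CPM). The 1 μM samples were lower than each DMSO sample, with a gap between the groups. Expression fell by 41.9% (95% interval of the fold 0.445 to 0.757), a log2 fold change of -0.78 (standard error 0.18, adjusted p = 0.00827, edgeR), lower in 3 of 3 samples. Leaving out single samples gave log2 fold changes of -0.86 to -0.69 and adjusted p-values of 0.0109 to 0.0365 (edgeR). Among the 1554 genes that fell and passed the test, the log2 fold change of *TERT* ranked 449 from the largest fall.

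*DKC1*, the pseudouridine synthase of the H/ACA particle, had 103, 109 and 99.6 CPM in DMSO and 125, 119 and 114 CPM at 1 μM. The groups did not overlap, and the rise was small beside the fall of *TERT*. The log2 fold change was 0.21 (standard error 0.06, adjusted p = 0.0263, edgeR), a rise of 15.5% with a 95% interval of 5.77% to 26.2%. The call was lost without DMSO replicate 3 (adjusted p = 0.125), 1 μM replicate 1 (adjusted p = 0.0943) or 1 μM replicate 2 (adjusted p = 0.0794, all edgeR), with log2 fold changes of 0.18, 0.19 and 0.20. It was also lost with the replicate number as a block (log2 fold change 0.21, adjusted p = 0.0592, edgeR).

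**Figure D2:**
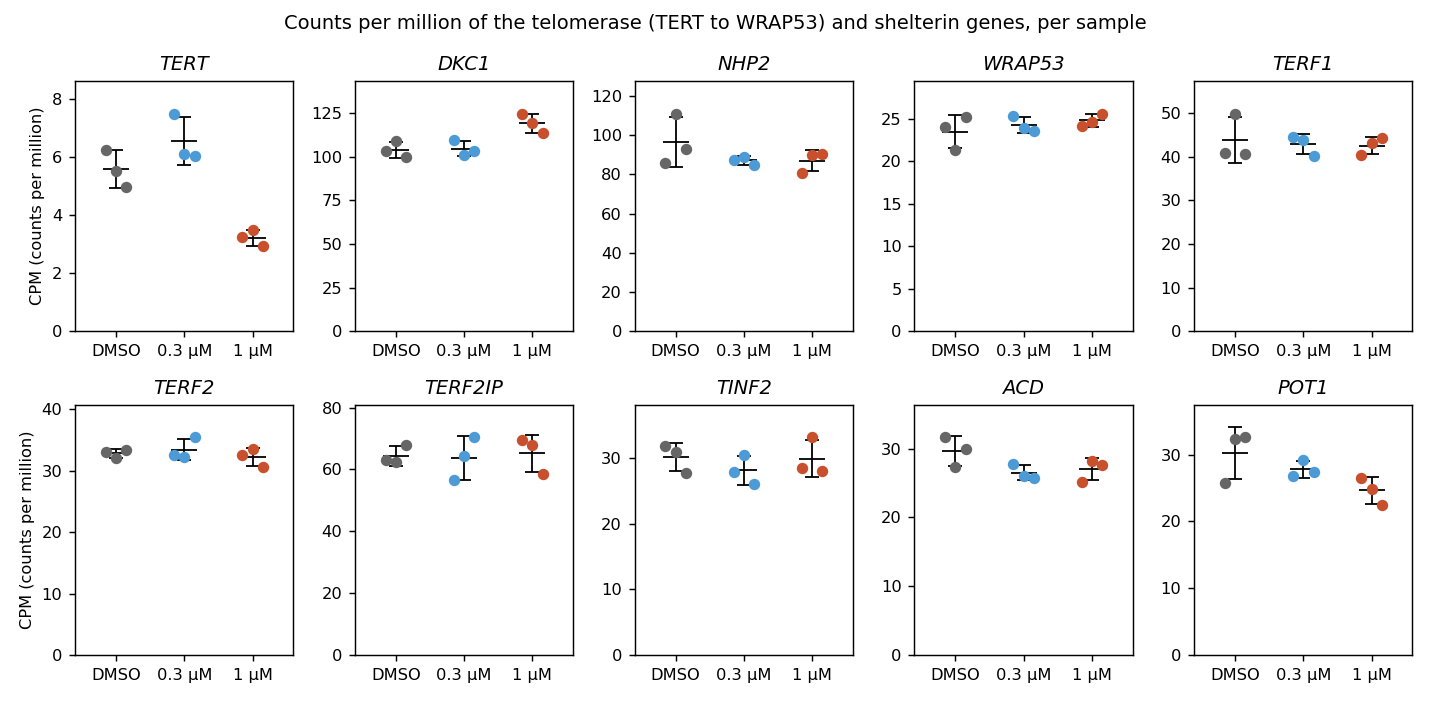
CPM of each gene per sample, with the mean and SD of 3 samples in black and each vertical axis starting at 0. The 1 μM samples of *TERT* (2.93 to 3.50 CPM) are below and those of *DKC1* (114 to 125 CPM) above their DMSO samples, and the groups of the shelterin genes overlap between DMSO and 1 μM.

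The other telomerase members did not pass. *NHP2* (ENSG00000145912, chromosome 5 from 178149460 to 178153967), a core H/ACA protein, had 86.0, 111 and 92.8 CPM in DMSO and 80.7, 90.0 and 90.2 CPM at 1 μM. These ranges overlapped, DMSO replicate 2 being the highest, and the log2 fold change was -0.14 (95% interval of the fold 0.799 to 1.03, adjusted p = 0.276 by edgeR). *WRAP53* (ENSG00000141499, chromosome 17 from 7686071 to 7703502) had 24.0, 21.3 and 25.2 CPM in DMSO and 24.2, 24.7 and 25.6 CPM at 1 μM. Its log2 fold change was 0.09 (95% interval of the fold 0.929 to 1.22, adjusted p = 0.546 by edgeR). *NHP2* shares 414 exonic bases with *RMND5B* on the opposite strand in the GENCODE annotation. The study's methods name a stranded library kit, but whether strand was used in counting is not given in the sources used here. Reads from this pair may therefore not be separated. *RMND5B* had a log2 fold change of 0.18 (adjusted p = 0.234 by edgeR).

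Of the 18 genes of a wider list of the telomerase particle and its RNA maturation, 17 were tested. At 1 μM 2 rose, *DKC1* and *TGS1*, and 1 fell, *TERT*, with a list median log2 fold change of 0.08. These 3 of 17 genes are the same share as the 17.6% called over all genes. *TGS1*, which makes the trimethylguanosine cap of the telomerase RNA, rose by 0.46 on the log2 scale (standard error 0.09, adjusted p = 0.00244 by edgeR). *NOP10* and *GAR1*, the H/ACA partners of *DKC1* and *NHP2*, had log2 fold changes of -0.09 (adjusted p = 0.355) and 0.18 (adjusted p = 0.369 by edgeR). *TERC* was the gene not tested, with at most 1 count in any sample. The study's methods name a stranded mRNA kit for the libraries and also a small RNA kit, so the RNA selected is not settled. Mature TERC has no poly(A) tail and would be missed by an mRNA kit, so this count is not read as its level.

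None of the 6 shelterin genes had an adjusted p under 0.05 at 1 μM with edgeR, DESeq2 or limma, and 1, *POT1*, had an unadjusted edgeR p under 0.05. Their log2 fold changes ran from -0.29 to 0.03, with a median of -0.02. *TERF1* (ENSG00000147601, chromosome 8 from 73008864 to 73048122), which binds the duplex repeat, had 40.9, 49.8 and 40.6 CPM in DMSO and 40.3, 43.1 and 44.2 CPM at 1 μM. *TERF2* (ENSG00000132604, chromosome 16 from 69355561 to 69408571), the duplex-binding protein that protects ends from fusion, had 33.0, 32.1 and 33.4 CPM in DMSO and 32.5, 33.6 and 30.6 CPM at 1 μM. The DMSO and 1 μM samples overlapped for both. The 95% intervals of the fold were 0.859 to 1.11 for *TERF1* and 0.882 to 1.11 for *TERF2*, so a 1.5-fold change in either direction lay outside them.

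*TERF2IP* (ENSG00000166848, chromosome 16 from 75647786 to 75761872), the partner of TERF2, had 62.9, 62.3 and 67.9 CPM in DMSO and 69.5, 67.7 and 58.4 CPM at 1 μM. *TINF2* (ENSG00000092330, chromosome 14 from 24239643 to 24242674), the hub of the complex, had 31.7, 30.9 and 27.7 CPM in DMSO and 28.4, 33.1 and 28.04 CPM at 1 μM. For these genes as well the groups overlapped and the fitted change was near 0, with 95% intervals of the fold of 0.913 to 1.14 for *TERF2IP* and 0.869 to 1.14 for *TINF2*. In the GENCODE annotation *TINF2* shares 957 exonic bases (21.9%) with *GMPR2* on the opposite strand. That model of *TINF2* starts at 24238286 and has 4378 exonic bases, against a length of 2712 bases for the deposited gene. The overlap of the deposited gene with *GMPR2* was therefore not determined. *GMPR2* had a log2 fold change of -0.03 (adjusted p = 0.817 by edgeR).

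*ACD* (ENSG00000102977, chromosome 16 from 67657512 to 67660815), whose protein recruits telomerase and pairs with POT1, had 31.6, 27.3 and 29.9 CPM in DMSO and 25.2, 28.2 and 27.6 CPM at 1 μM. The groups overlapped, and the log2 fold change was -0.13 (95% interval of the fold 0.803 to 1.05, adjusted p = 0.365 by edgeR). *POT1* (ENSG00000128513, chromosome 7 from 124822386 to 124929983), the single-strand binding subunit, had 25.8, 32.4 and 32.6 CPM in DMSO and 26.5, 24.9 and 22.5 CPM at 1 μM. DMSO replicate 1 was within the range of the treated samples, and the other DMSO samples were above it. The log2 fold change was -0.29 (standard error 0.10, 95% interval of the fold 0.707 to 0.953) and missed the threshold (adjusted p = 0.0650 by edgeR). DMSO replicate 1 decided this call, since without it the log2 fold change was -0.38 and *POT1* passed (adjusted p = 0.0134 by edgeR). With normalization and fit repeated on protein-coding genes only, *POT1* also passed (adjusted p = 0.0462 by edgeR).

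**Figure D3:**
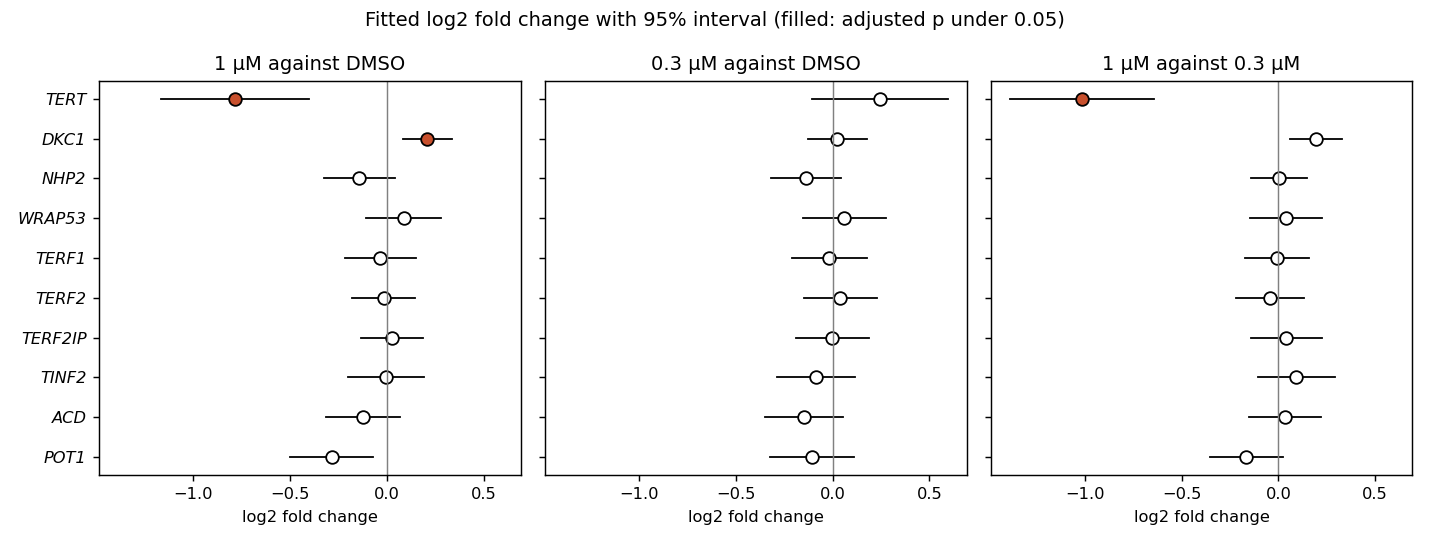
Fitted log2 fold change of each gene (points) with its 95% interval (lines) in the 3 comparisons, filled where the adjusted p was under 0.05. *TERT* and *DKC1* are filled at 1 μM against DMSO, *TERT* alone at 1 μM against 0.3 μM, and the interval of each shelterin gene lies within 1.5-fold of no change.

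**Figure D4:**
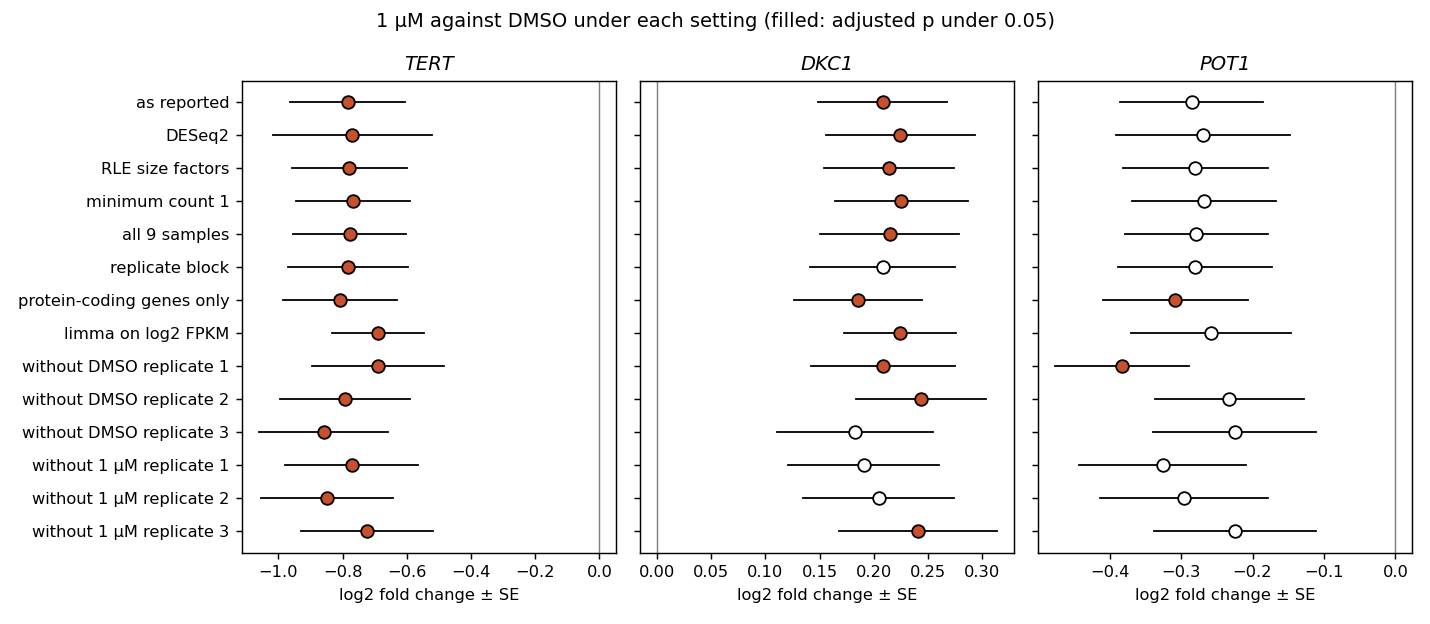
Log2 fold change at 1 μM against DMSO (points) with its standard error (lines) for *TERT*, *DKC1* and *POT1*, as reported and under each of 13 other settings, filled where the adjusted p was under 0.05. *TERT* passed in all 13, *DKC1* in 9 and *POT1* in 2.

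At 0.3 μM of YK-4-279 the members did not separate from DMSO. With edgeR 0 of 10 members had an adjusted p under 0.05, as did 0% of the 15762 genes tested, and 0 members (594 genes in all) had an unadjusted p under 0.05. DESeq2 and limma also called 0 members. The groups overlapped in CPM for all 10 members, while 8.43% of all genes did not overlap. *TERT* had 133, 110 and 106 counts (7.51, 6.12 and 6.04 CPM) at this dose. Replicate 1 was above every DMSO sample, and replicates 2 and 3 were within the DMSO range. The fitted log2 fold change was 0.24 (standard error 0.17), and the 95% interval of the change, -7.21% to 50.9%, did not reach the fall seen at 1 μM. *DKC1* had 109, 101 and 103 CPM, a log2 fold change of 0.02 (95% interval of the fold 0.916 to 1.13). The shelterin genes had log2 fold changes between -0.15 for *ACD* and 0.04 for *TERF2*. *POT1*, with 26.8, 29.2 and 27.5 CPM, had a log2 fold change of -0.11.

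The doses were then compared with each other, using no DMSO sample. *TERT* was lower at 1 μM than at 0.3 μM in 3 of 3 samples, and the log2 fold change was -1.02 (standard error 0.18, adjusted p = 0.00142, edgeR), a fall by 50.5% with a 95% interval of the fold of 0.382 to 0.640. It was the 1 member called, against 12.6% of the 15583 genes tested. The groups did not overlap for *TERT*, *DKC1* and *POT1*, against 31.4% of all genes. *DKC1* was close to the threshold, with a log2 fold change of 0.20 (adjusted p = 0.0514 by edgeR), and it passed without replicate 1 of the 0.3 μM group (adjusted p = 0.0422 by edgeR). *POT1* had a log2 fold change of -0.16 (adjusted p = 0.254 by edgeR). The 3 comparisons share samples, so their values for a gene are not independent of each other.

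Among genes that copy and process chromosome ends, more fell than rose, but this was not particular to them. The replication genes *MCM5*, *PCNA* and *MCM2*, outside this list, fell by 0.34, 0.31 and 0.32 on the log2 scale. They belong to the 10 proliferation markers given below, of which 6 fell and 1 rose. In a list of 30 such genes, 29 were tested, and at 1 μM 12 fell and 1 rose, with a median log2 fold change of -0.14. *POLA2*, a subunit of the polymerase alpha-primase that fills in the C-rich strand, fell by 0.74 on the log2 scale (adjusted p = 0.00115 by edgeR). *ATRX*, the chromatin remodeller that is lost in tumours that maintain telomeres without telomerase, fell by 0.82 (adjusted p = 0.00191). *BLM*, a helicase of telomere replication, fell by 0.44 (adjusted p = 0.00192), and *RIF1*, which controls origin timing and end joining, fell by 0.57 (adjusted p = 0.00245). *TNKS2*, the tankyrase that releases TERF1 from telomeres, was the gene that rose, by 0.24 (adjusted p = 0.0207, all edgeR), and is named after its value was seen. The shares called were 13 of 29 in this list, 0 of 6 in shelterin and 17.6% over all genes. The lists were written with earlier results of these data known, so these shares are descriptive. The difference between the lists was not tested.

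In a list of 25 genes of small nucleolar particles and ribosome biogenesis, which includes *DKC1* and *NHP2*, 11 rose and 0 fell at 1 μM, against 7.67% higher and 9.95% lower over all genes, and the median log2 fold change was 0.20. *DKC1* was among the 11. This list was also written with earlier results of these data known, so its share is descriptive. *RRS1*, a ribosome assembly factor, rose by 0.63 (adjusted p = 0.000268), *POLR1A* and *POLR1B*, the large subunits of RNA polymerase I, rose by 0.47 and 0.57 (adjusted p = 0.000419 and 0.00204), and *DDX21*, a nucleolar helicase, rose by 0.39 (adjusted p = 0.00156, all edgeR) on the log2 scale. The core H/ACA proteins other than *DKC1* were not among the 11.

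**Figure D5:**
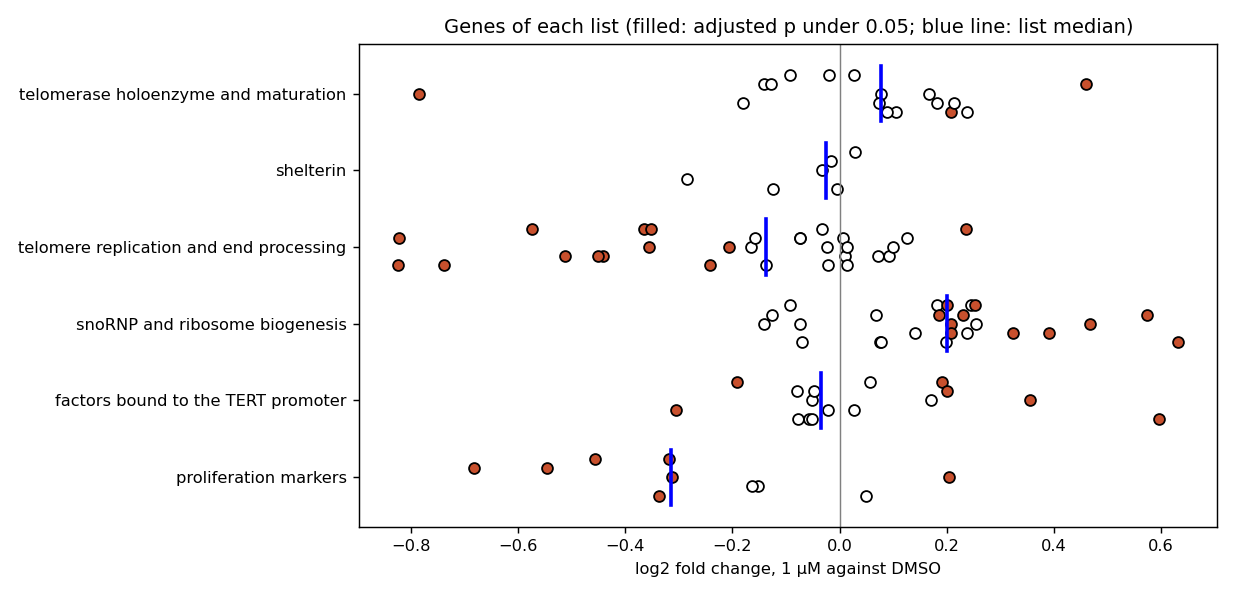
Log2 fold change at 1 μM against DMSO of each tested gene in 6 lists (points, filled where the adjusted p was under 0.05), with the median of each list as a blue line. Most called genes of telomere replication lie below 0 and those of ribosome biogenesis above it, *TERT* is the called telomerase gene below 0, and the 6 shelterin genes are open points.

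Factors known to act on the *TERT* promoter did not move in one direction. Of 16, 4 rose and 2 fell at 1 μM, against 7.67% higher and 9.95% lower over all genes. This list too was written with earlier results of these data known. *GABPA* and *GABPB1*, the subunits of the ETS factor GABP, had log2 fold changes of 0.06 (adjusted p = 0.653) and -0.08 (adjusted p = 0.677). The ETS genes *ETV1*, *ETV4* and *ETV5* had 0.03 (adjusted p = 0.855), 0.17 (adjusted p = 0.0861) and 0.20 (adjusted p = 0.0459), *ETV5* having passed the test. *ELF1* and *ETS1*, further ETS genes, rose by 0.35 (adjusted p = 0.00344) and 0.19 (adjusted p = 0.0336), and *WT1* rose by 0.60 (adjusted p = 0.0198). *SP1*, which binds GC boxes, fell by 0.19 (adjusted p = 0.0234), and *E2F1*, named after its value was seen, fell by 0.31 (adjusted p = 0.0361). *MYC*, which binds E-boxes, had a log2 fold change of -0.05 (adjusted p = 0.654, all edgeR).

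The genes next to *TERT* on chromosome 5 did not fall with it. *CLPTM1L*, its neighbour, rose by 0.33 (adjusted p = 0.00270) and *LPCAT1* rose by 0.24 on the log2 scale (adjusted p = 0.0129, both edgeR). The other 3 of 5 neighbours listed, *SLC6A18*, *SLC6A19* and *SLC6A3*, did not pass the filter on low counts.

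Among 10 proliferation markers, 6 fell at 1 μM (*CDK1*, *TOP2A*, *UBE2C*, *MCM5*, *PCNA* and *MCM2*), with log2 fold changes from -0.68 for *CDK1* to -0.31 for *PCNA*, while *CCNB1*, a mitotic cyclin, rose by 0.21 (adjusted p = 0.0205 by edgeR). Over all genes 9.95% fell and 7.67% rose, and the marker list was written with earlier results of these data known. *MKI67*, with -0.16 (adjusted p = 0.0742), *CCNA2*, with -0.15 (adjusted p = 0.0751), and *BIRC5*, with 0.05 (adjusted p = 0.599, all edgeR), did not pass. Their part in the change of *TERT* was not tested.

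The profile of *TERT* over the 9 samples, as log2 CPM centred on its own mean, was compared with those of 12297 protein-coding genes with a mean of at least 1 CPM. The smallest root mean square differences were those of *CHAD* (0.12), *PRELID3A* (0.13), *SLC13A4* (0.14), *PPP1R3E* (0.15) and *EXD3* (0.15). These 5 genes had lower fitted levels at 1 μM than in DMSO or at 0.3 μM, with log2 fold changes of -0.97 to -0.67 against DMSO. They were picked for likeness to *TERT* over these same samples, so a fall at 1 μM follows from the choice. Among the members *POT1* came nearest to *TERT*, with a difference of 0.36 and rank 2372, and *DKC1* was farthest, with a difference of 0.49 and rank 9357.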

How the data were processed

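RNA-seq data of 9 KHM-5M samples were analysed. The authors aligned clean reads to GRCh38 with Hisat2 and counted reads per gene with HTseq per their methods, whereas the submitters' processing notes list HISAT2 2.0.5, featureCounts 1.5.0-p3 and DESeq2 1.20.0. The deposited counts are whole numbers without normalization, and the deposited FPKM values divide them by gene length and library size. The authors' deposited fold changes, p-values and adjusted p-values per gene were not used.

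Counts of all genes were tested with edgeR 4.0.16 (glmQLFit, glmQLFTest) in R 4.3.3 after filterByExpr with a minimum count of 10 and TMM, using the groups compared and no covariate. Adjusted p-values are Benjamini-Hochberg values across the whole table of tested genes, with calls at under 0.05. The log2 cutoff of 0.587 stands for 1.5-fold. Intervals are the fitted log2 fold change with its standard error at 95%. The smallest two-sided p of an exact permutation test on 3 against 3 samples is 0.1, so none was run. CPM were scaled to the sum of counts per sample, 16903251 to 18238884. The profile comparison added 0.5 CPM before the log2.

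The members and the gene lists were chosen with earlier results of these data known. All 10 members are named, with up to 4 called genes per list in order of adjusted p, all called or uncalled proliferation markers, set context genes, the marker genes and genes that share exons with a member. Some values of these context genes are not reported here. Exon overlaps were read from GENCODE (GRCh38) and promoter windows from RefSeq (GRCh38.p14).

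Alternatives were DESeq2 1.42.0, RLE size factors, a minimum count of 1, all 9 samples in 1 fit, a block for the replicate number, leaving out single samples, protein-coding genes only, and limma 3.58.1 on log2(FPKM + 0.1). The steps were checked on simulated counts for 1 μM against DMSO. There edgeR recovered 61 of 96 genes with a true log2 change of 0.6 in size and 92 of 99 with 1.0, with 6 false calls. Changes of the smaller size can thus be missed. Python 3.11.15 was used for tables and plots.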

Additional observations from a re-analysis of the deposited data

Results flagged for a closer look

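The effect on *TERT* differed between the doses. Against DMSO the log2 fold change was 0.24 (standard error 0.17) at 0.3 μM and -0.78 (standard error 0.18) at 1 μM, and the direct comparison of the doses, which tests this difference, gave -1.02 (standard error 0.18, adjusted p = 0.00142, edgeR), lower in 3 of 3 samples. Under the 13 other settings this value was -1.08 to -0.91, with an adjusted p of 0.000578 to 0.0164. The rise at 0.3 μM did not pass the test under any of them (adjusted p of at least 0.787, edgeR, DESeq2 or limma).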

How the results depend on the processing

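*TERT* kept its direction and passed the test under each of 13 alternatives at 1 μM against DMSO and at 1 μM against 0.3 μM. Over the log2 fold changes of the members, 347 of the values under alternatives kept direction and side of the threshold, 4 lost a call, 3 gained one and 36 changed sign, all 36 from uncalled values near 0. At 1 μM against DMSO, the replicate number as a block left 1 member called, *TERT* (*DKC1*, adjusted p = 0.0592), and leaving out single samples gave 1 to 3. At 1 μM against 0.3 μM leaving out single samples gave 1 to 2 members. The same-numbered samples had correlations of their deviations of -0.0217 to 0.0817, and differently numbered samples -0.0692 to 0.0376. Between DMSO and 0.3 μM the same-numbered values (0.0198 to 0.0817) were above the others (-0.0692 to 0.00559). These values do not settle whether the numbers pair the samples. The main fits did not pair them, and the replicate block is the fit that does. Over all genes, DESeq2 called 1827 at 1 μM against DMSO (2752 with edgeR), 1 at 0.3 μM against DMSO (0 with edgeR) and 1230 at 1 μM against 0.3 μM (1964 with edgeR), limma on FPKM called 1110 in the last, and the replicate block called 1 at 0.3 μM. Leaving out single samples gave 1683 to 2977 genes at 1 μM against DMSO, with 1683 without DMSO replicate 3, 1755 without 1 μM replicate 2 and 1805 without 1 μM replicate 3. It gave 0 to 4 at 0.3 μM against DMSO, with 4 without 0.3 μM replicate 3 and 1 without DMSO replicate 2. It gave 948 to 1884 at 1 μM against 0.3 μM, with 1253 without 0.3 μM replicate 2 and 1164, 1118 and 948 without 1 μM replicates 1, 2 and 3. The cause of these shifts was not tested. Sign changes at 1 μM against DMSO were those of *TINF2* (0.012 with DESeq2, 0.00099 with RLE, 0.013 with a minimum count of 1, 0.0019 with all 9 samples, 0.010 with limma) and *TERF2* (0.00070 with a minimum count of 1). At 0.3 μM against DMSO they were those of *TERF2IP* (0.0048 with DESeq2, 0.0017 with RLE, 0.0055 with a minimum count of 1, 0.00025 with all 9 samples), and at 1 μM against 0.3 μM those of *NHP2* (-0.00096 with all 9 samples, -0.021 with protein-coding genes only). Without single samples, the log2 fold change at 1 μM against DMSO ranged from -0.089 to 0.046 for *TINF2*, -0.080 to 0.071 for *TERF1*, -0.0037 to 0.10 for *TERF2IP* and -0.050 to 0.019 for *TERF2*. At 0.3 μM against DMSO it ranged from -0.083 to 0.083 for *TERF2IP*, -0.063 to 0.084 for *TERF1*, -0.0073 to 0.12 for *WRAP53*, -0.0059 to 0.056 for *DKC1* and -0.0082 to 0.072 for *TERF2*, and at 1 μM against 0.3 μM from -0.050 to 0.039 for *TERF1*, -0.041 to 0.12 for *TERF2IP* and -0.024 to 0.064 for *NHP2*. Depth limits *TERT* most, with 50 to 133 counts per sample.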
